A study of Mus musculus with 10 samples.

Results

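The expression of 9 named ciliated airway cell genes, Foxj1, Tekt1, Tekt2, Tekt4, Spag6, Tppp3, Dynlrb2, Hydin and Rsph1, was compared between the lungs of mice exposed to cigarette smoke and those of mice exposed to room air. The genes were given by name and not by measured values, and a probe was taken where its gene name in the scanner files, or the current symbol of its accession, was 1 of the 9. This gave 14 of the 41174 probes on the array and 10 of its 27670 genes, because the array carries the name Spag6 on probes of a gene now called Spag6l. Today's Spag6 and Tppp3 are listed in the files under clone identifiers, and Rsph1 as Tsga2. Tekt1, Spag6l, Dynlrb2 and Hydin had 2 probes each, and the probe with the brightest mean lung signal stood for its gene.

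Each of the 10 Agilent whole mouse genome arrays measured the lung RNA of 1 mouse, a female of the inbred strain BALB/c that was 6 to 8 weeks old at purchase. The 5 mice of the first group breathed room air for 8 weeks. The 5 mice of the second group breathed cigarette smoke over the same 8 weeks, on 5 days a week, with 2 exposures a day that each lasted 50 minutes and burned 12 cigarettes. The comparison asks which genes of the lung differ in expression after this exposure.

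Levels are log2 ratios of the red signal, taken as lung RNA, over the green signal, taken as a reference RNA, so that 0 means equal brightness in both. The lung gene Scgb1a1 had a mean ratio of 6.60 ± 0.33 (SD, n = 10) and the Y chromosome gene Ddx3y one of -2.23 ± 0.41, which is the basis of this reading. Every direction given here rests on it and on the assignment of the scanner files to the samples, since the labels name a single dye and the deposited table of processed values has the groups exchanged.

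Motile cilia are the beating projections of ciliated airway cells, which move mucus and trapped particles out of the lung. Their core, the axoneme, is a ring of doublet microtubules around a central pair of microtubules, with dynein arms as motors and radial spokes between ring and centre. The transcription factor Foxj1 switches on many genes of this apparatus, and cigarette smoke is known to impair the clearance of mucus by cilia.

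The sequences of 5 probes are shown first, because they decide which gene and which transcript a value stands for. The probe now named Spag6 lies on chr2:18810659-18810718 on the plus strand, in the mm7 coordinates that the files give. The Spag6l probes lie on chr16:16301686-16301745 and chr16:16372062-16372121, both on the minus strand, and the Hydin probes on chr8:109210151-109210210 and chr8:108981499-108981558, both on the plus strand. Of the 60 bases of each, in the order printed, 26, 23, 17, 27 and 22 are G or C. The dimmer probe of Spag6l and that of Hydin were well above background in the lung channel on 0 of 10 arrays, whereas the brighter probes were on all 10, so the values of Spag6l and Hydin come from the brighter probe alone.
Spag6 probe: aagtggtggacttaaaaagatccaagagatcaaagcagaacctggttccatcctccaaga
Spag6l probe, brighter: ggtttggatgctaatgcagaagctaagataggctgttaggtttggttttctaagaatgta
Spag6l probe, dimmer: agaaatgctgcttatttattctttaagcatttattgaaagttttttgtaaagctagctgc
Hydin probe, brighter: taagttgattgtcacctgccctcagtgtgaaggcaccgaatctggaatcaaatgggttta
Hydin probe, dimmer: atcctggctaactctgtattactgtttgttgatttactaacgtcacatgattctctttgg

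Promoters from RefSeq (GRCm38.p6, from 250 bases before the start to 50 after it) were matched for 7 of the 10 genes, with 10 promoters among them. They are shown because several of the genes share a feature there that the choice of genes did not use. The motif searched was GTTGC, then 1 to 4 bases of any kind, then GCAAC, the paired form of the X-box that RFX factors are known to bind in ciliary genes. It reads the same on both strands, and its letters and spacing were set after the promoters had been seen. It was found in 4 of the 7 genes, Tekt2, Tekt4, Hydin and Dynlrb2, which is 5 of their 10 promoters, of which 2 of Tekt2 overlap and hold the same site. Of all 32851 promoters 146 held it (0.444%), a share that shows how rare the letters are and is no test, because the motif was written from the promoters of these genes. The first base of the motif lay 29 bases before the start in the Tekt2 promoter printed here, and 36, 21 and 51 bases before it in Tekt4, Hydin and Dynlrb2. The shorter GTTGCC, searched on both strands and overlapping the first motif in part, was found in 8 of the 10 promoters, against 12.5% of all promoters (4111). Counted by gene, with a match in any promoter, it was in 7 of the 7, against 14.1% of all genes with a promoter (3821 of 27025). These letters come from the same promoters and lie within some of the paired sites, so this too is no test. A match describes letters and is no evidence of a bound factor. The promoters of Tekt2 (chr4:126325639-126325938, minus strand), Tekt4 (chr17:25471340-25471639, plus strand), Hydin (chr8:110266727-110267026, plus strand) and Dynlrb2 (chr8:116504765-116505064, plus strand) are printed with the paired motif in capitals.
Tekt2 promoter: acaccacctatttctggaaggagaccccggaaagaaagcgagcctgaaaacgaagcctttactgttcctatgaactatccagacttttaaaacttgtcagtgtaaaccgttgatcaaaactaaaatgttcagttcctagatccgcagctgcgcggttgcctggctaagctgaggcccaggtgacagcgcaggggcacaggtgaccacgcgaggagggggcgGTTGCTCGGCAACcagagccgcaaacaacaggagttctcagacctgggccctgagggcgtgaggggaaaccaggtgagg
Tekt4 promoter: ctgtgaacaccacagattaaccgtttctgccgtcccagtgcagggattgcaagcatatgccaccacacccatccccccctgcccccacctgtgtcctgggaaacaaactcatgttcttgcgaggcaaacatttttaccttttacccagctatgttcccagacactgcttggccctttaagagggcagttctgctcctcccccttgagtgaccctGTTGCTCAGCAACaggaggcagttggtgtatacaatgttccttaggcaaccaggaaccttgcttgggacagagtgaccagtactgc
Hydin promoter: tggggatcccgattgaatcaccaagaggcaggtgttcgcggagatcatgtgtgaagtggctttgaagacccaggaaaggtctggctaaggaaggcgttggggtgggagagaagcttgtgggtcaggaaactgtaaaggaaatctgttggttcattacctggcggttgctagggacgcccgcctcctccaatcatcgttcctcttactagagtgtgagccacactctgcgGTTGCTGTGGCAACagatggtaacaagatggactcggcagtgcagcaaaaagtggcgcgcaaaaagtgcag
Dynlrb2 promoter: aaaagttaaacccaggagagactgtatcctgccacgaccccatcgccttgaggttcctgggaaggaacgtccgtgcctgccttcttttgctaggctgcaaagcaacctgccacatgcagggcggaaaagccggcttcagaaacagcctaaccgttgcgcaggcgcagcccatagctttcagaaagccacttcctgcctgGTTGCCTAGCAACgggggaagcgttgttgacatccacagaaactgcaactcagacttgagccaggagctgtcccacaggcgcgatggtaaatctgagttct

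In the lung channel, 9 of the 10 genes were well above background on all 10 arrays. Spag6 was on 4 of 5 room air arrays and 3 of 5 smoke arrays, so its values lie close to background. No array had a saturated spot among the 14 probes. The mean ratio over the 10 arrays ran from 1.66 in Rsph1 to 4.86 in Tppp3 among the 9 detected genes, and was -0.63 ± 0.12 (SD, n = 10) in Spag6. The median of the 10 means was 2.87, against 0.0083 over all genes. A ratio sets the lung signal of a probe against the reference signal of the same probe, so the order of the ratios is not an order of abundance. Beyond these genes, a list of other ciliated airway cell genes had 37 measured of 42, of which 35 were well above background in the lung channel on all arrays, with a median ratio of 1.86. The genes other than Spag6 were thus brighter in lung than in the reference. Over the cilium lists described below, the median ratio ran from -0.040 in intraflagellar transport to 1.89 in the tektin list. Markers of type 2 cells had 4.80 and endothelial markers 4.57, so a high ratio is not particular to ciliated cells. Which cells of the lung gave the signal was not measured, and in whole lung fewer ciliated cells and less RNA per cell cannot be told apart.

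**Figure D1:**
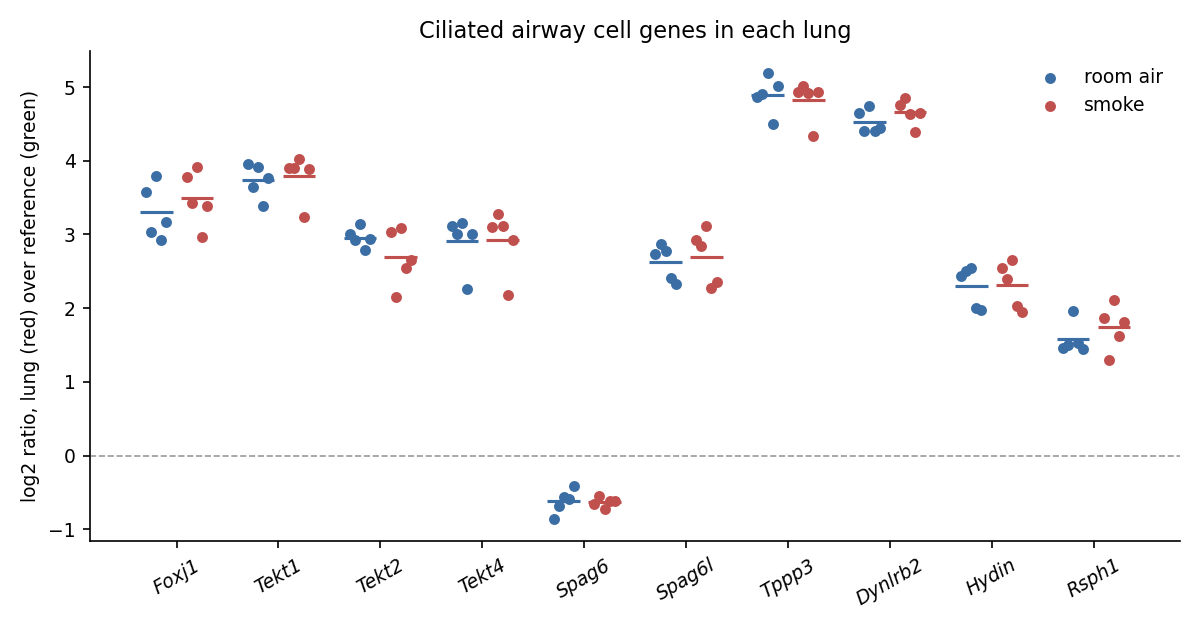
Log2 ratio of lung over reference signal of each of the 10 genes in each lung (points, replicates 1 to 5 from left to right) with the mean of each group (bars), room air in blue and smoke in red. The groups overlap in every gene, and Spag6 alone lies below 0.

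In the comparison of smoke with room air, limma called 0 of the 10 genes at an adjusted p threshold of 0.05, where it called 8.23% of all genes (2276 of 27669). It called 0 of the 14 probes, against 7.06% of all probes, and the share among genes well above background in the lung channel on all arrays was 12.9%. At an unadjusted p under 0.05 limma also counted 0 of the 10, against 20.0% of all genes, and the exact Wilcoxon test counted 0 with and without adjustment. The lowest adjusted p that the Wilcoxon test reached over all probes was 0.115, so its adjusted counts, here and below, are 0 for any gene and say nothing about a single one. The 2 groups did not overlap in 0 of the 10 genes, against 7.89% of all genes. The adjusted p ran from 0.449 in Tekt2 to 0.988 in Tekt4. The log2 difference between the group means was positive in 7 genes and negative in 3, with a median of 0.038, where all genes had a median of -0.0042. With the ratios scaled between arrays the median of the 10 was 0.18, and without room air replicate 4 or smoke replicate 3 it was -0.014 and -0.015, so the side of 0 on which it lies is not settled.

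These p-values do not show that the genes were equal in both groups, so the 95% intervals of the differences are given with them. All 10 intervals lay within a 2-fold difference in either direction, from 0.655-fold to 1.56-fold at the outermost bounds. Within 1.5-fold lay 8 of them, all but those of Foxj1 and Tekt2. These bounds hold for ratios drawn towards 0 by the offset of the background correction, which weighs most on dim spots. In red alone the interval of Spag6 ran from -1.32 to 0.44, beyond 2-fold. Those of Foxj1 (up to 0.87), Tekt2 (down to -0.69), Tppp3 (down to -0.89) and Rsph1 (up to 0.71) passed 1.5-fold in red. With the scanner software's ratio the difference was -0.38 in Spag6 and 0.43 in Spag6l. The standard errors ran from 0.076 in Spag6 to 0.22 in Tekt4, and the median over all probes was 0.068. That median is no yardstick of precision, because it includes dim probes whose ratios the offset draws towards 0. The dimmer probes of Hydin and Spag6l, not above background in lung, had standard errors of 0.051 and 0.058. The 10 arrays lay on 5 slides, each with the smoke array and the room air array of the same replicate number. On all 5 slides the smoke array had place 1 and the room air array place 2, so differences between smoke and room air, within a slide or over all arrays, cannot be told apart from differences between the places. With the slide as a block in limma, 0 of the 10 genes were called, against 13.8% of all genes, and at an unadjusted p under 0.05 there were 2, Foxj1 and Tekt2, against 26.1%.

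**Figure D2:**
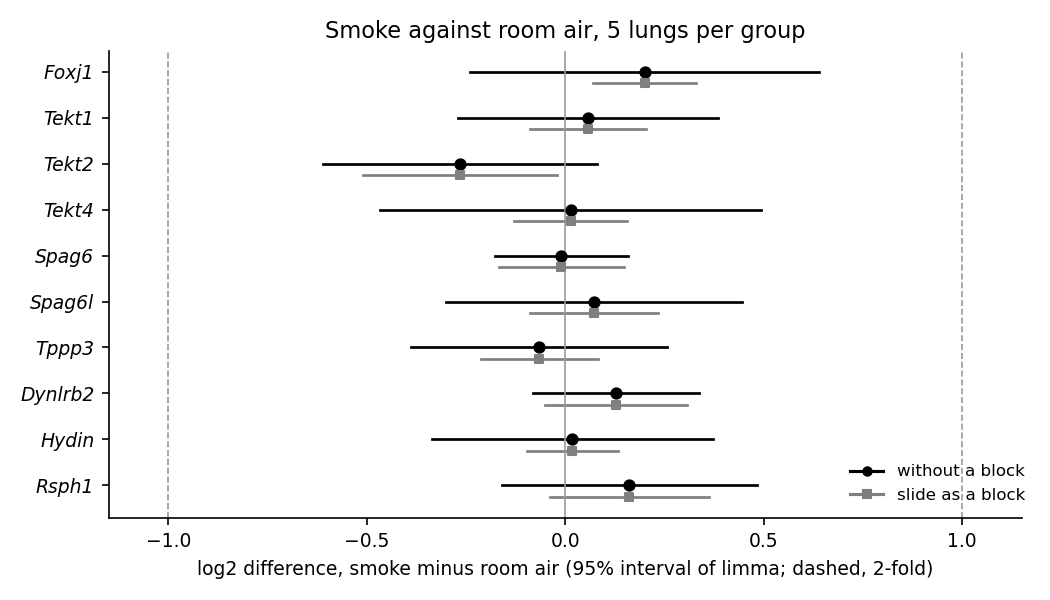
Log2 difference between smoke and room air of each gene with its 95% interval from limma, without a block (black circles) and with the slide as a block (grey squares), 5 lungs per group. All 10 black intervals include 0 and stay within the dashed lines at a 2-fold difference, and with the block those of Foxj1 and Tekt2 do not include 0.

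Foxj1 encodes the forkhead factor that directs the formation of motile cilia. In replicates 1 to 5 its log2 ratio was 3.58, 3.04, 3.79, 2.92 and 3.17 with room air, and 3.78, 3.43, 3.91, 2.97 and 3.39 with smoke. On each slide the smoke array lay above the room air array, while the groups as wholes overlapped over most of their range. The means were 3.30 ± 0.37 and 3.50 ± 0.37 (SD, n = 5). The log2 difference was 0.20 (SE 0.20), with a 95% interval from -0.24 to 0.64 and an adjusted p of 0.726 by limma. Without any 1 array it lay between 0.096 (without smoke replicate 3) and 0.33 (without smoke replicate 4), with 0.10 and 0.32 without room air replicates 4 and 3 and 0.13 without smoke replicate 1. Within the slides the differences were 0.20, 0.40, 0.13, 0.06 and 0.22, positive on 5 of 5, which 12% of all genes also were. With the slide as a block, limma gave a p of 0.00747, which after adjustment over all probes was 0.0573 and missed the threshold. Of 15 listed regulators of multiciliated cells, Foxj1 among them, 11 were measured, of which limma called 0, with 1 at an unadjusted p under 0.05, 0 by the Wilcoxon test and 1, higher, with the slide as a block. The shares over all genes were 8.23% called by limma, 20.0% at an unadjusted p under 0.05 and 13.8% called with the block. The median log2 difference of that list was 0.088, and 0.062 without Foxj1.

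The tektins are filament proteins bound to the doublet microtubules of the axoneme. Tekt2 had ratios of 3.00, 2.92, 3.14, 2.79 and 2.94 with room air and of 3.04, 2.15, 3.09, 2.55 and 2.65 with smoke. Smoke replicate 2 was the lowest, and smoke replicates 1 and 3 lay within the room air range. The difference was -0.26 (SE 0.16, 95% interval from -0.61 to 0.080), with an adjusted p of 0.449 by limma. Without smoke replicate 2 it was -0.13, and without any other array between -0.36 and -0.22. Within the slides the differences of Tekt2 were 0.03, -0.76, -0.05, -0.24 and -0.30, positive on 1 of 5. With the slide as a block the p was 0.0372, or 0.170 after adjustment.

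Tekt1 and Tekt4 differed less between the groups. For Tekt1 the ratio ran from 3.39 to 3.95 with room air and from 3.24 to 4.02 with smoke, and the difference was 0.058 (95% interval from -0.27 to 0.38). The dimmer Tekt1 probe, whose ends lie 6105 bases apart in the design coordinates of the files, had a difference of 0.042 (adjusted p = 0.906 by limma). For Tekt4 replicate 4 was the lowest of both groups, at 2.26 with room air and 2.18 with smoke, and the other 8 arrays lay close together, between 2.93 and 3.28. The difference of Tekt4 was 0.013 (95% interval from -0.47 to 0.49), the widest interval of the 10.

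The central pair of the axoneme is represented by Hydin, Spag6 and Spag6l, which encode a large projection protein and its armadillo-repeat partners. Hydin had a mean ratio of 2.29 ± 0.28 (SD, n = 5) in the room air lungs and of 2.31 ± 0.31 in the smoke lungs, a difference of 0.018 (95% interval from -0.34 to 0.37). Spag6l had 2.63 ± 0.24 and 2.70 ± 0.37, a difference of 0.072 (95% interval from -0.30 to 0.44), with its reference signal well above background on 1 of 10 arrays. The ratio of Spag6l is therefore shaped by the offset of the background correction, which draws ratios of dim spots towards 0. Spag6, which was dim in lung, had -0.62 ± 0.17 and -0.63 ± 0.068, a difference of -0.0097 (95% interval from -0.18 to 0.16). The dimmer probes of Spag6l and Hydin, whose sequences are printed above, had differences of -0.023 and 0.0062, values that carry no level because neither probe was above background in lung.

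Rsph1 encodes a protein of the radial spoke head. Its ratio ran from 1.44 to 1.96 with room air, and was 1.86, 1.29, 2.11, 1.62 and 1.81 with smoke. Room air replicate 3 was the highest of its group, and its partner on the slide was the highest smoke array. The difference was 0.16 (SE 0.15, 95% interval from -0.16 to 0.48, adjusted p = 0.685 by limma), positive on 4 of 5 slides. Without smoke replicate 3 it was 0.068, and without room air replicate 3 or smoke replicate 2 it was 0.26 and 0.27. The reference signal of Rsph1 was well above background on 6 of 10 arrays.

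Tppp3 encodes a tubulin-binding protein that marks ciliated cells in the airway, and Dynlrb2 a light chain of the roadblock family of dyneins. Tppp3 had a mean ratio of 4.89 ± 0.25 (SD, n = 5) in the room air lungs and of 4.83 ± 0.28 in the smoke lungs, a difference of -0.066 (95% interval from -0.39 to 0.26, adjusted p = 0.904 by limma). With ratios scaled between arrays the difference of Tppp3 was 0.17, so its sign is not settled. For Dynlrb2 the ratios were 4.65, 4.40, 4.74, 4.40 and 4.44 with room air and 4.76, 4.85, 4.63, 4.39 and 4.65 with smoke. The groups overlapped, with smoke replicate 4 as the lowest of the 10. The difference of Dynlrb2 was 0.13 (SE 0.095, 95% interval from -0.081 to 0.34, adjusted p = 0.588 by limma), and its dimmer probe had 0.19 (adjusted p = 0.468). Without smoke replicate 2 the difference was 0.080, and without smoke replicate 4 it was 0.19.

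**Figure D3:**
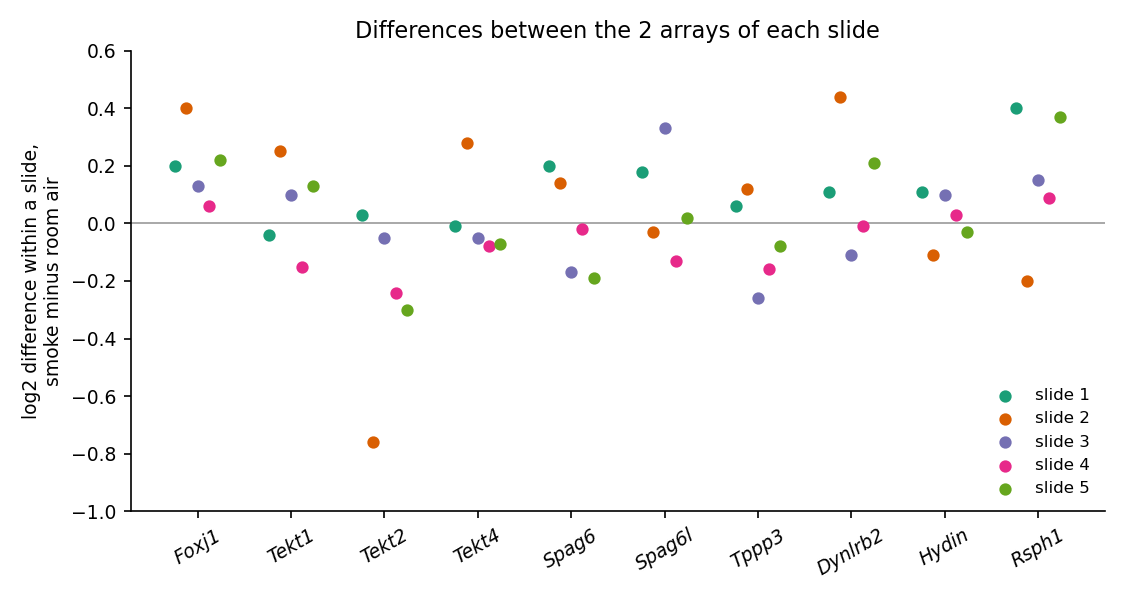
Log2 difference between the smoke array and the room air array of each slide (points, 1 colour per slide) for each gene. Foxj1 is above 0 on 5 of 5 slides, Tekt2 is lowest on slide 2 at -0.76, and the other genes lie on both sides of 0.

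Each channel was also read alone, as the log2 processed signal minus the 75th percentile of its array. In the red channel limma called 0 of the 10 genes, against 4.90% of all genes, and at an unadjusted p under 0.05 there were 2, Tppp3 and Dynlrb2, against 15.7%. The median difference of the 10 genes was 0.067 in red and -0.032 in green. The red signal of Dynlrb2 was 3.70, 3.85, 3.87, 3.88 and 3.83 with room air and 4.25, 4.18, 4.15, 4.01 and 4.02 with smoke. The 5 smoke values were all higher than the 5 room air values, and 7.30% of all genes were apart like this in either direction. The difference of Dynlrb2 in red was 0.30 (SE 0.092, 95% interval from 0.090 to 0.50), with a p of 0.00946 and an adjusted p of 0.129 by limma, and the green channel differed by 0.21 in the same direction. In Tppp3 the mean red signal was 5.11 with room air (SD 0.33) and 4.61 with smoke (SD 0.20). Its red difference was -0.50 (SE 0.17, 95% interval from -0.89 to -0.12), with a p of 0.0158 and an adjusted p of 0.176 by limma, and its green difference was also -0.50 (SE 0.16). In Tppp3 the green channel thus met nearly all of the red difference, while in Dynlrb2 the ratio kept 0.13 of 0.30.

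The spread of the ratios was split into a part between slides and a part between the groups. There were more slides than groups, so the slide part is the larger even for noise. Each part is therefore set against that of other genes. Of the spread of a gene over the 10 arrays, the part between slides was 89.2% at the median of the 10 genes, and 97.4% in Hydin and 96.5% in Tekt4. Over 17133 genes well above background in the lung channel on all arrays, the median was 50.8%. The part between the groups had a median of 1.77% in the 10 genes and of 16.4% in those genes. The ratios of the 9 detected genes also varied together. Over their 36 pairs, Pearson's r across the 10 arrays had a median of 0.58 and was above 0 in 35. In red alone the median r was 0.015 with 18 pairs above 0, and in green alone it was 0.54 with 34 above 0. These correlations describe arrays that share slides and 1 reference, so no p is given. Within the 5 slides, the median difference of the 10 genes was 0.11, 0.13, 0.03, -0.05 and -0.01.

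Slide 4 stood apart. It alone was scanned on the first of the 4 scan days, though slides 1 and 3 also had a day each, so slide and day cannot be told apart. Red signal was well above background in 76.1% of probes on the room air array of slide 4 and 76.9% on its smoke array. On the other arrays the share was 64.0% to 71.0%. The green signal of Tekt4 was 0.08 and 0.01 on the room air and smoke arrays of that slide and between -1.40 and -0.88 on the other 8 arrays, while the red signal was 2.39 and 2.23 there and 1.82 to 2.38 elsewhere. In Tekt1 the green signal was -0.58 and -0.38 on slide 4 and -1.70 to -1.10 elsewhere. Markers of male germ cells were bright on the same slide. The lung-channel signal summed over the 11 measured testis germ cell markers was 1.63 on the room air array and 1.48 on the smoke array of slide 4, and between 0.19 and 0.362 on the other arrays, in units of the 75th percentile of each array. The brightest gene of that list was Prm1, a protamine that packs sperm DNA, and 4 of the 11 were well above background in red on all arrays, 2 on no array. On the room air array of slide 4, Prm1 was bright in both channels, with a red signal of -0.60 against -4.78 to -3.88 in the other room air lungs and a green signal of -1.51 against -4.59 to -3.58. The part of these signals in the ratios of the ciliated cell genes was not tested. Without both arrays of slide 4, a setting chosen after seeing the data, limma called 0 of the 10 genes and their median difference was 0.073.

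**Figure D4:**
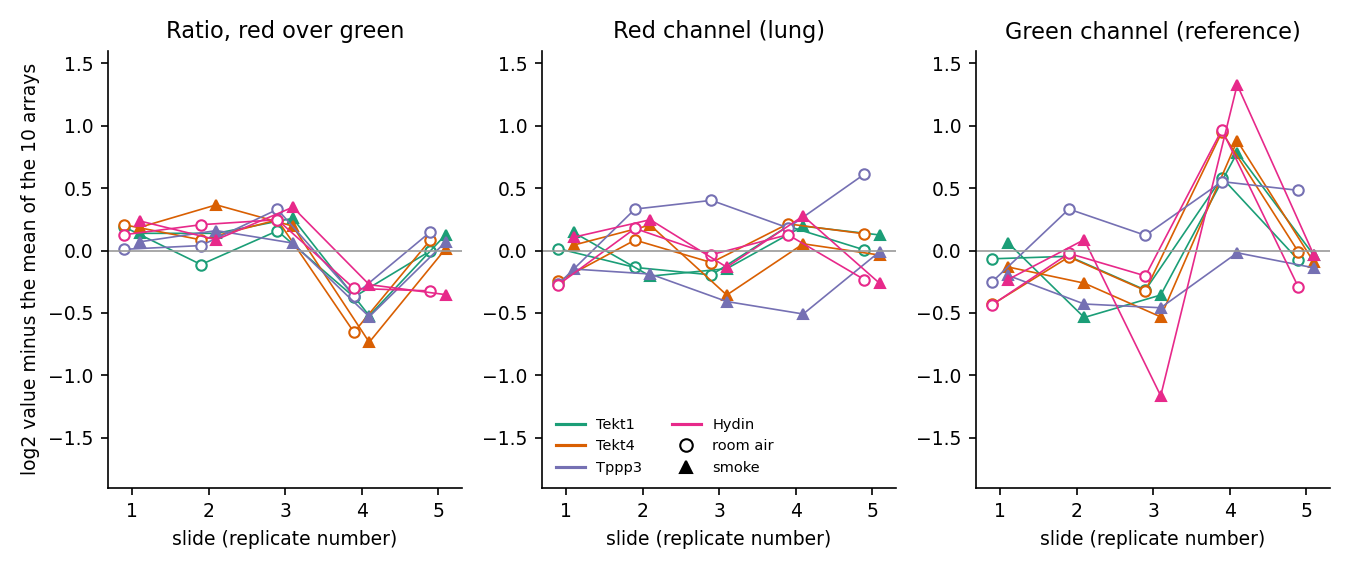
Log2 ratio (left), red signal (middle) and green signal (right) of Tekt1, Tekt4, Tppp3 and Hydin by slide, each minus its mean over the 10 arrays, with room air as open circles and smoke as triangles. On slide 4 the ratios are low in both groups (for Hydin also on slide 5), with the green signals of Tekt1, Tekt4 and Hydin high.

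The rest of the cilium was read from 8 lists of genes by role, written from general knowledge. The counts of single lists include those of the 10 genes that belong to them, and medians are given with and without these. Outside the 10 genes the lists name 169 genes, of which 149 were measured and 136 were well above background in the lung channel on all arrays. limma called 9 of the 149 (6.04%), 6 higher and 3 lower with smoke, against 8.23% of all genes. The split depends on single arrays, with 1 higher and 3 lower without smoke replicate 1, and 4 higher and 0 lower without smoke replicate 5. Their median log2 difference was 0.037, with 92 of the 149 positive (61.7%, against 48.1% of all genes). Without any 1 array the median lay between 0.0048 and 0.075, and with ratios scaled between arrays it was 0.091. Over all settings but the deposited table, 76 to 110 were positive. At an unadjusted p under 0.05 there were 28 (18.8%, against 20.0% of all genes), and the Wilcoxon test called 0. With the slide as a block the count was 22 (14.8%), 18 higher and 4 lower, against 13.8% of all genes. Among all genes well above background in the lung channel on all arrays, as 136 of the 149 were, the shares were 12.9% without the block and 21.6% with it, so both counts of the wider cilium genes lay below that background.

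By role, the dynein arm subunits had 1 gene called of 19 measured (5.26%). Of all genes limma called 8.23%, and this share applies to the count of every list from here on. Dnah8, a heavy chain of the arms, fell by 0.33 on the log2 scale (SE 0.079, adjusted p = 0.029 by limma), from 0.99 ± 0.084 (SD, n = 5) to 0.66 ± 0.17, with every smoke array below every room air array. With the mean of all its probes Dnah8 had a difference of -0.089 (adjusted p = 0.373), so the call rests on the probe that stands for it. The median of the list was -0.012 with and without Dynlrb2, and 0.082 with the ratios scaled between arrays, so it has no settled side of 0. Of the 14 measured genes of arm assembly and docking, Ccdc103, which anchors the arms, rose by 0.43 (SE 0.10, adjusted p = 0.0234), and with its probes averaged had 0.26 and lost its call (adjusted p = 0.0675). Of the 15 measured genes of the radial spokes and nexin links, Ropn1l, a spoke protein, rose by 0.30 (SE 0.077, adjusted p = 0.0405), and with its probes averaged had 0.23 and lost its call (adjusted p = 0.106). That list had 14 of 15 genes with a positive difference and a median of 0.16, which stayed positive, between 0.12 and 0.22, under the other processing of the scanner files and between 0.068 and 0.18 without any 1 array. No test was made of the list, and without Rsph1, which belongs to it, the median was 0.15.

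The 15 measured genes of the central pair had 0 called by limma, 1 at an unadjusted p under 0.05, 0 by the Wilcoxon test and 1, higher, with the slide as a block. Over all genes limma called 8.23%, or 13.8% with the block, and 20.0% had an unadjusted p under 0.05. Their median was 0.018, which is the value of Hydin itself, and 0.0075 without Hydin, Spag6 and Spag6l. Without any 1 array it lay between -0.031 and 0.071, so its side of 0 is not settled either. Of the 22 measured tektins and proteins inside the doublet microtubules, Ribc1 rose by 0.30 (SE 0.079, adjusted p = 0.0414), with a list median of 0.045, and of 0.085 without Tekt1, Tekt2, Tekt4 and Tppp3. Intraflagellar transport, the traffic of particles that builds cilia, had 3 of 26 measured genes called (11.5%). The share was 8.23% of all genes and 12.9% of those well above background in the lung channel on all arrays, so this count lay near it. Ift46 rose by 0.25 (adjusted p = 0.0348), Ift43 fell by 0.25 (adjusted p = 0.0216) and Ift80 fell by 0.21 (adjusted p = 0.0478), so the calls of this list went in both directions, around a median of -0.026. With all probes of each gene averaged, Ift46 had a difference of 0.12 (adjusted p = 0.266) and Ift80 one of -0.036 (adjusted p = 0.761), and both calls were lost. Among the 37 other ciliated airway cell genes, Meig1, known for its part in forming sperm, rose by 0.59 (SE 0.13, adjusted p = 0.0201), from 2.30 ± 0.15 to 2.89 ± 0.30, and Lrrc51, which encodes a leucine-rich repeat protein, rose by 0.30 (SE 0.064, adjusted p = 0.0162). The reference signal of Meig1 was well above background on 1 of 10 arrays, so the size of its ratio difference is uncertain, and with the scanner software's ratio it was 0.60 with an adjusted p of 0.541. The median of this last list was 0.054, with 0.18 after scaling between arrays, 0.12 in red alone and 0.012 to 0.12 without any 1 array.

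Most of these 9 calls lay near the threshold. Leaving out 1 array at a time, Lrrc51 passed without each of the 10. Meig1 lost its call only without smoke replicate 1 (adjusted p = 0.0529), and Ift43 without any of 3 arrays, which were room air replicate 3 and smoke replicates 4 and 5. Ccdc103 lost its call without any of 6 arrays, Dnah8 of 7, and Ropn1l, Ribc1, Ift46 and Ift80 of 8 each. The differences themselves kept their direction without any 1 array, between 0.39 and 0.51 in Ccdc103, -0.37 and -0.28 in Dnah8, 0.26 and 0.36 in Ropn1l, 0.26 and 0.35 in Ribc1, 0.21 and 0.29 in Ift46, and -0.24 and -0.17 in Ift80. Under 11 other settings of the model or processing (10 for Meig1), the Wilcoxon test not counted, the call was lost in 8 for Dnah8 and Ribc1, 6 for Ift43 and Ift80, 5 for Ift46 and Ropn1l, 4 for Ccdc103 and Lrrc51, and 3 for Meig1. The deposited table, an average of both channels in which limma called 16 of all probes, was among these settings. Every call but that of Meig1, which was not tested there, was lost in it. In the red channel alone limma called 2 of the 149 (1.34%, against 4.90% of all genes), Meig1, with a difference of 0.78, and Ccdc96, with 0.51, the latter named after its value was seen.

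Markers of other lung cells were counted beside the cilium genes. Of 14 measured markers of club, goblet and secretory cells, limma called 1, the keratin gene Krt15, which rose by 0.92 (SE 0.16, adjusted p = 0.00567). Krt5, Krt14 and Krt17 of the basal cell list are keratins too, and which cells expressed Krt15 was not measured. With the slide as a block 6 of the 14 were called, all 6 higher (42.9%, against 13.8% of all genes), in red alone 3 (21.4%, against 4.90%), and 7 of the 14 had an unadjusted p under 0.05 without the block, against 20.0% of all genes. The median of that list was 0.28, with 0.57 after scaling between arrays and 0.71 in red alone, and its brightest gene, Cbr2, had a difference of 0.050 (adjusted p = 0.908). Its genes did not all move together. Positive were 11 of the 14, and after Krt15 the largest differences were 0.78 in Agr2, 0.69 in Bpifb1 and 0.69 in Muc5b. Scgb1a1 (-0.20), Cyp2f2 (-0.066) and Upk3a (-0.090) were negative. Of 5 basal cell markers limma called 0, with 0 at an unadjusted p under 0.05 and 0 by the Wilcoxon test, a median of 0.026 and Krt14 as the brightest (difference 0.026). Calca, the peptide gene of neuroendocrine cells and the brightest of their 6 markers, rose by 1.44 (SE 0.26, adjusted p = 0.00562) and was the only 1 called, with a list median of -0.039. With the scanner software's ratio the difference of Calca was 0.30 (adjusted p = 0.869) and the call was lost, and with the mean of its probes it was 0.92 (adjusted p = 0.0131). In red alone it was 2.24 (adjusted p = 0.000653 by limma), and 2.03 after quantile normalization. Its reference signal was well above background on 7 of 10 arrays.

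In the alveoli, limma called 0 of the 8 markers of type 2 cells, 0 also at an unadjusted p under 0.05 and by the Wilcoxon test, but 1 with the slide as a block and 2 in red alone. Of all genes limma called 8.23%, with the block 13.8% and in red alone 4.90%, and these shares apply to the counts of the lists that follow. The median of the type 2 markers was 0.083, with 0.30 after scaling between arrays and 0.20 in red alone, and a difference of -0.13 in the brightest, Sftpc. Of the 7 type 1 markers it called 2 lower, Cav1, the brightest, which fell by 0.64 (SE 0.088, adjusted p = 0.0011), and Emp2, which fell by 0.39 (SE 0.058, adjusted p = 0.00196), with a median of -0.16. Not called by limma were Ager, with 0.028 (adjusted p = 0.969), Pdpn, with 0.077 (0.638), and Hopx, with -0.060 (0.894). Aqp5, with -0.23 (0.434), and Rtkn2, with -0.16 (0.0734), were not called either. With ratios scaled between arrays, Emp2 had a difference of -0.21 (adjusted p = 0.676), its call was lost, and the median was -0.028. Of 6 endothelial markers it called Pecam1, which fell by 0.41 (SE 0.11, adjusted p = 0.0488) and lost its call without any of 7 arrays and under 7 of 11 other settings. The endothelial median was -0.15, with 0.082 after scaling between arrays and -0.61 in red alone, where 3 of the 6 were called. Cldn5, the brightest, had a difference of -0.12 as a ratio, of 0.17 after scaling (adjusted p = 0.865) and of -0.75 in red alone (adjusted p = 0.011), so its sign and size depend on the processing. Alveolar macrophage markers had the highest median of these lists, with 6 of 8 called, all 6 higher, and a median of 1.24. Marco rose by 2.60 (SE 0.41, adjusted p = 0.00248), Chil3, the brightest, by 2.12 (SE 0.21, adjusted p = 0.000138) and Cd68 by 2.06 (SE 0.061, adjusted p = 6.92e-09). The markers not called were Siglecf, with 0.25 (adjusted p = 0.312), and Fabp4, with -0.25 (adjusted p = 0.780). The lung-channel signal summed over these markers was 45.0 to 55.1 with room air and 173 to 212 with smoke, in units of the 75th percentile, against 55.5 to 77.6 and 56.9 to 67.2 for the 10 ciliated cell genes. The 11 testis markers had 0 called, 0 at an unadjusted p under 0.05 and 0 by the Wilcoxon test, with a median of 0.015 and a difference of 0.15 in Prm1. Without room air replicate 4, on which Prm1 was bright, the difference of Prm1 was 0.33 and passed limma's test (adjusted p = 0.0254), and without both arrays of slide 4 it was 0.28 (adjusted p = 0.0428). Whether a shift in the makeup of the lung bears on the values of the ciliated cell genes was not tested.

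**Figure D5:**
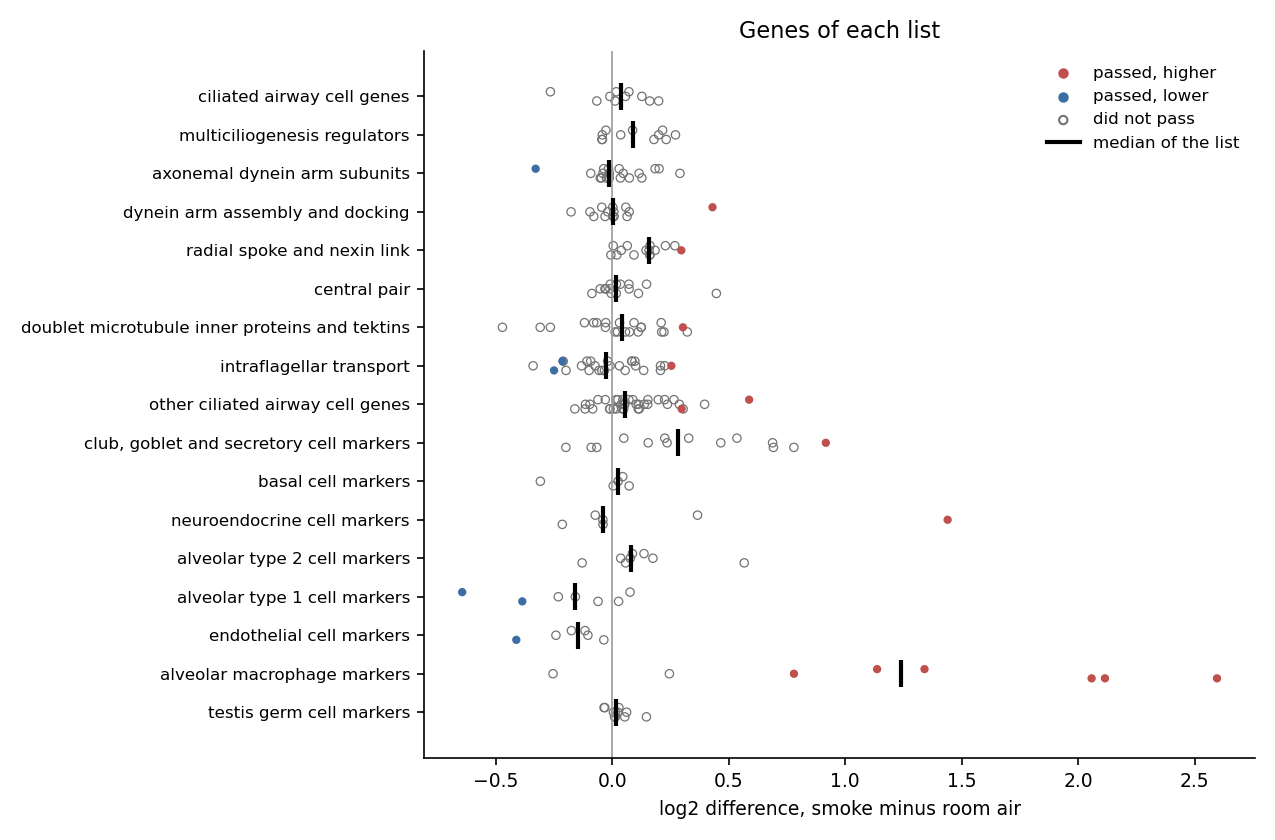
Log2 difference between smoke and room air of every measured gene of each list, with genes called by limma in red (higher) or blue (lower), others as open circles, and the median as a bar. The medians of the cilium lists lie between -0.026 and 0.16, and that of the alveolar macrophage markers at 1.24.

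The genes whose ratios ran most like those of the ciliated cell genes were sought among 13909 genes outside the 10, with the mean of the standardized ratios of the 9 detected genes as the measure. The 8 with the highest Pearson's r over the 10 arrays were Fam166b (r = 0.985), Cnr2 (0.983), Slc34a2 (0.981), Timp4 (0.974), Gata5 (0.971), Col23a1 (0.962), Mycbpap (0.960) and Ptger2 (0.959). Spearman's rho of these 8 lay between 0.952 and 0.976. Without the 2 arrays farthest from the median of the measure, both of slide 4, r was 0.909 in Mycbpap to 0.987 in Cnr2. They were picked as the highest of many and share slides and reference, so no p is given. In the red channel alone r was 0.871 for Fam166b, but 0.459 for Gata5, 0.412 for Mycbpap, 0.298 for Timp4, 0.285 for Col23a1, 0.283 for Cnr2, 0.275 for Slc34a2 and -0.050 for Ptger2. The likeness of these 7 was thus mostly one of ratios, and only that of Fam166b was also close in lung signal. The reference signal of Gata5 was well above background on 2 of 10 arrays. With the scanner software's ratio r was 0.491 in Gata5 and was -0.30 in Ptger2, and with scaling between arrays it was 0.633 in Timp4 and 0.804 in Ptger2. None of the 8 passed limma's test between smoke and room air, with 0 at an unadjusted p under 0.05, and their adjusted p ran from 0.775 to 0.974.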

How the data were processed

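The 5 room air and 5 smoke lungs were each measured on 1 Agilent array. The deposited scanner files hold red and green intensity of each spot, made by the authors with Feature Extraction (9.5.3.1 per the file headers, 9.1 in the submitters' notes). The deposited scanner files also hold the ratio of the channels as log10, used as an alternative. The deposited table holds processed values on a log2 scale. Each is the mean of the log2 red and log2 green signal of a spot after background subtraction. Computed in this way from the scanner files, 286449 of its 286449 values equal, within 1e-04, the array of the same number in the other group. The table was used only as an alternative. No columns of other samples were used (0).

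The mean intensity of each spot was background corrected (normexp, offset 50) and loess normalized within each array in limma 3.58.1 (R 4.3.3), and log2 red over green was compared between groups by lmFit and eBayes. The p-values were adjusted by Benjamini-Hochberg over 41173 probes, with a threshold of 0.05. The exact Wilcoxon test of 5 against 5 arrays can reach 0.00794 at best. A gene took the symbol of its accession, then its current symbol, a synonym or the name in the files, and list symbols were matched also through older names. One Spag6l probe was named after the other probe of that name. Signal well above background was the scanner software's call.

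The replicate number was checked as a pairing. Of residuals from the group means, same-number arrays correlated at r = 0.157, 0.46, 0.461, 0.55 and 0.415, and arrays of different numbers at a median of -0.124 and at most 0.205. Each number is a slide, scanned on 4 days in all.

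The genes and lists were chosen with earlier results of these data known, and the promoter motif after the promoters were seen. There were 22 alternatives, on the test, slide block, dim probes, background, scaling, channel, several probes of a gene, deposited table and arrays left out, of which the one without slide 4 was chosen after seeing the data. For the median level and the likeness to the ciliated cell genes, the alternatives were not planned.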

Additional observations from a re-analysis of the deposited data

Results flagged for a closer look

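Of 64 groups of 5 lungs (32 genes), 6 held a lung far from the other 4, where chance gives about 5%. With smoke, replicate 4 was low in Tekt1, at 3.24 against 3.89 to 4.02 (red 3.07 against 2.67 to 3.02, green -0.38 against -1.70 to -1.10). It was low in Tppp3, at 4.33 against 4.92 to 5.02 (red 4.35 against 4.45 to 4.85, green -0.06 against -0.50 to -0.18). It was low in Marco, at 4.97 against 5.92 to 6.13 (green -0.34 against -1.78 to -1.50). With room air, replicate 4 was low in Tekt4, at 2.26 against 3.00 to 3.16 (red 2.39 against 1.93 to 2.31, green 0.08 against -1.30 to -0.88), and high in Prm1, at 0.92 against -0.03 to 0.13. Room air replicate 3 was high in Rsph1, at 1.96 against 1.44 to 1.53 (red -1.27 against -2.08 to -1.51, green -5.29 against -5.88 to -4.80). The cause was not tested.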

How the results depend on the processing

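The count of ciliated airway cell genes past the threshold was 0 under every alternative run by limma. The Wilcoxon test also gave 0, but the lowest adjusted p it reached over all probes was 0.115, so no probe passed it and its counts of 0 say nothing about stability. For the ratios of the report 0 also had an unadjusted p under 0.05 by both, against 2 with the slide as a block and 2 in red alone by limma. Unadjusted counts under the other alternatives are not given. Their median difference, 0.038, lay between 0.019 and 0.18 under the other processing of the scanner files and between -0.015 and 0.19 without any 1 array. The median level, 2.87, was 3.43 with normexp offset 16, 4.07 with the scanner software's ratio and 2.84 to 2.93 without any 1 array. It was not run under the Wilcoxon test, the block, red alone or the deposited table, nor was the likeness under the Wilcoxon test, the block, the mean of probes or the deposited table.

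Over all probes the 2906 calls became 0 by the Wilcoxon test, 5019 with the slide as a block, 1759 in red alone (2329 after quantile normalization) and 16 in the deposited table (0 higher, 16 lower), and 2102 to 3660 without any 1 array. The 9 calls among the wider cilium genes became 0 by the Wilcoxon test, 22 with the slide as a block, 3 with offset 16, 2 in red alone, 10 in red alone after quantile normalization (8 higher, 2 lower), 11 scaled between arrays (10 higher, 1 lower, against 6 and 3), 5 with the mean of probes, 0 in the deposited table and 5 without slide 4, which was chosen after seeing the data. Without any 1 array they were 2 to 9, with 2 without room air replicate 3, 3 without room air replicate 5 or smoke replicate 3, and 4 without smoke replicate 1 (1 higher, 3 lower), 2 (2 and 2) or 5 (4 and 0).

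Some differences changed sign. Spag6 was 0.0047 with no background correction. With the scanner software's ratio Krt14 was -0.0095 and the r of Ptger2 was -0.30. Scaled between arrays, Tppp3 was 0.17, Cldn5 0.17, Sftpc 0.15 and Krt14 -0.037. In red alone Tekt4 was -0.037 (-0.028 after quantile normalization), Krt14 -0.011, Sftpc 0.16 and the r of Ptger2 -0.050. Without any 1 array, Tekt1 lay between -0.027 and 0.19, Tekt4 between -0.15 and 0.20, Hydin between -0.066 and 0.11, Spag6 between -0.068 and 0.043, Spag6l between -0.031 and 0.18, Tppp3 between -0.16 and 0.058, Cbr2 between -0.015 and 0.14, Krt14 between -0.052 and 0.13 and Sftpc between -0.26 and 0.020. The cause was not tested.

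In the deposited table the groups are exchanged against the scanner files. Its values average both channels, so they hold the reference signal and are neither a ratio nor a lung level. An opposite sign is thus the same direction in that average, and gives no direction of the lung signal alone. An opposite sign was found in Foxj1 (-0.24), Tekt2 (0.19), Spag6 (0.50), Tppp3 (0.54), Dynlrb2 (-0.18), Rsph1 (-0.91), Calca (-1.57), Cav1 (0.27), Cbr2 (-0.11), Ccdc103 (-0.26), Cd68 (-1.09), Chil3 (-0.93), Cldn5 (0.81), Dnah8 (0.36), Emp2 (0.31), Ift43 (0.15), Ift46 (-0.097), Ift80 (0.18), Krt15 (-0.79), Lrrc51 (-0.099), Marco (-2.58), Pecam1 (0.70), Prm1 (-0.41), Ribc1 (-0.091) and Ropn1l (-0.13). The sign was the same, and so the direction of the average the other way, in Tekt1 (0.086), Tekt4 (0.10), Hydin (0.48), Krt14 (0.062) and Sftpc (-0.063), and in the median of the ciliated airway cell genes (0.10). Signal over background limits Spag6, seen on 7 of 10 arrays, and the reference side of Spag6l and Meig1 (1 array each), Gata5 (2), Rsph1 (6) and Calca (7).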
